A study of Mus musculus with 12 samples.

Results

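The C-type lectin receptors described here are 8 mouse genes, Clec4e, Clec4d, Clec4n, Clec7a, Clec5a, Clec12a, Clec4a2 and Clec10a, taken by gene symbol from a count table of 40847 rows. All 8 were in the table and passed the filter on low counts, which kept 14749 genes. Messenger RNA was sequenced from fetal liver alveolar-like macrophages (FLAMs), mouse macrophages grown from fetal liver as a culture model of the alveolar macrophage, in 12 libraries that fall into 4 groups of 3. GM-CSF, a growth factor that macrophages of the lung depend on, was present at 30 ng/ml in every group, the untreated one included. The untreated group received nothing more, and the TGFβ group was cultured with recombinant human TGFβ1 at 20 ng/ml. The Pam3 group was given Pam3CSK4, a synthetic lipopeptide that activates TLR2, for 18 h at 25 ng/ml, and the Pam3+TGFβ group had both agents. How long the cells had been with or without TGFβ, and whether the libraries of a group came from separate cultures, animals or isolations, is not given in the sources used here. The p-values therefore measure the spread between these libraries, which may be technical. The question put to these genes is whether TGFβ sets their level in the resting macrophage, and whether it changes how they answer a TLR2 ligand.

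C-type lectin receptors are surface proteins with which macrophages and dendritic cells bind sugars and lipids of fungi, mycobacteria and damaged cells. Activating members signal through an ITAM, a tyrosine motif carried in the receptor's own tail or by the adaptors FcRγ (Fcer1g) and DAP12 (Tyrobp), which recruits the kinase Syk and, through Card9, Bcl10 and Malt1, activates NF-kB. Members with an ITIM, the inhibitory counterpart of that motif, recruit phosphatases such as SHP-1 (Ptpn6). In the lung, the alveolar macrophage meets inhaled fungi and mycobacteria first, and TGFβ and GM-CSF are the signals that keep its identity.

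Promoter windows, 250 bases before to 50 bases after the start site, were held for 6 of the 8 genes in a RefSeq table on build GRCm38.p6. The windows of 3 genes are printed, Clec4e and Clec4d because the levels of these neighbours moved together over the 12 libraries, and Clec12a because its level fell furthest with TGFβ. Clec4e was read from the minus strand at chr6:123289822-123290121, Clec4d from the plus strand at chr6:123261857-123262156, and Clec12a from the plus strand at chr6:129349994-129350293. Each runs 5′ to 3′ on the gene's strand, with matches to the motifs named next in capitals.
Clec4e: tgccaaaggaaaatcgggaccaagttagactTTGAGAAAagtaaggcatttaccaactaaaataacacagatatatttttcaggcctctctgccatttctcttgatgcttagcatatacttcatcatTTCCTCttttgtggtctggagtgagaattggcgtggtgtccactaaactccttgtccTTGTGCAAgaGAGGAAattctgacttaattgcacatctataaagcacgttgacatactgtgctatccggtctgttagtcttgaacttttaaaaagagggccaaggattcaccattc
Clec4d: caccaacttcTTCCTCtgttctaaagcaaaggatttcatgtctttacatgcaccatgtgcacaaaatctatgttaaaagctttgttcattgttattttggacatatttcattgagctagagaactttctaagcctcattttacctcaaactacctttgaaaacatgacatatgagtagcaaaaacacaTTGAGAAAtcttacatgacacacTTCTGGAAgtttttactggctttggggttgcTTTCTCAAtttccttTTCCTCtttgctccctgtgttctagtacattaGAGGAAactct
Clec12a: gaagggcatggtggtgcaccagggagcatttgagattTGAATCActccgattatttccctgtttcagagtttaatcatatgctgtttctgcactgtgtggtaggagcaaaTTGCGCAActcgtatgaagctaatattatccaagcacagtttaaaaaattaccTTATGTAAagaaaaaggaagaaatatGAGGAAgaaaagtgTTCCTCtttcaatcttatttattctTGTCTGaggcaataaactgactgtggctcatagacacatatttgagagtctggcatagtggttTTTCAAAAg

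The capitals mark the C/EBP motif TTNNGNAA, the AP-1 motif TGANTCA, the ETS core GAGGAA and the SMAD element CAGACA, searched on both strands. Of 27025 promoter windows of the same length, 40.8% held the C/EBP motif, 7.91% AP-1, 28.2% the ETS core and 21.1% the SMAD element. Clec4e had C/EBP matches that began at -219 and -66 from the start site, and Clec4d had them at -62, -39 and -8. The 8 letters TTGAGAAA, a form of the C/EBP motif, occurred in both. How often these letters occur in other windows was not counted. The Clec12a window held C/EBP matches at -140, -87 and 42, an AP-1 match at -213, and the SMAD element, as TGTCTG on the other strand, at -22. Of the 6 windows, 5 held a C/EBP match, 5 an ETS core, 2 an AP-1 match and 2 the SMAD element. The NF-kB consensus, found in 8.22% of all windows, had no match in these 6, which says only that those letters are not in them.

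Libraries held 34036650 to 44374115 counts. The cells carried macrophage markers in every library, and most defining markers of other lineages were at or near 0. The 6 macrophage genes summed to 30600 to 34900 CPM (the count rate edgeR gives on TMM-scaled library sizes) in untreated libraries, 16500 to 17500 with TGFβ, 33300 to 34400 with Pam3 and 25400 to 26000 with both. With TGFβ this sum was lower, as most of the receptors were, and it was largely lysozyme, Lyz2 (29800 CPM untreated, 15200 with TGFβ). Adgre1 (303 CPM untreated, 145 with TGFβ), Cd68 (858 and 549 CPM) and Csf1r (983 and 820 CPM) had lower means with TGFβ too. Mertk stood at 223 and 222 CPM and Fcgr1 at 81.1 and 91.3 CPM. The untreated and Pam3 sums overlapped. The alveolar macrophage list (8 of 8 genes tested) summed to 5730 to 7680 CPM over all libraries. Of its genes, 5 had a higher mean with TGFβ than untreated, among them Siglecf at 300 against 32.1 CPM and Krt79 at 52.5 against 0.147 CPM, and 3 had a lower one, Marco at 123 against 2150 CPM, Itgax at 168 against 335 CPM and Fabp4 at 0.132 against 31.1 CPM. Of the dendritic cell list (2 of 5 genes tested), Flt3, Ccr7 and Siglech averaged under 0.1 CPM over the 12 libraries, and its sum was 4.48 to 5.62 CPM in untreated libraries and 1.23 to 1.94 CPM with TGFβ. Of the neutrophil list (4 of 7 genes tested), Ly6g, Mpo and Elane averaged under 0.1 CPM, and its sum was 13.5 to 15.7 CPM in untreated libraries and 3.75 to 5.51 CPM with TGFβ. That fall was in S100a8, at 13.8 CPM untreated and 3.07 CPM with TGFβ, while S100a9 (0.253 and 0.993 CPM), Ngp (0.346 and 0.623 CPM) and Camp (0.00802 and 0.174 CPM) had higher means with TGFβ. Of the hepatocyte list (1 of 4 genes tested), Alb, Apoa1 and Ttr averaged under 0.1 CPM, and Afp averaged 5.77 CPM untreated, 5.90 with TGFβ, 7.02 with Pam3 and 9.27 with both. The mast cell gene Cpa3 averaged 0.599 CPM untreated and 0.0334 with TGFβ, and of the endothelial genes Cdh5 averaged 0.888 and 0.0514 CPM and Pecam1 0.895 and 2.46 CPM. The part of the macrophage and other markers in the receptor changes was not tested. In bulk RNA, fewer cells of a type and less RNA per cell cannot be told apart. The libraries also differed in RNAs without poly(A) tails, 13 rows picked after their values were seen. Those rows held 0.196% to 1.63% of the counts in 7 libraries and 5.02% to 8.28% in the other 5, none of which was a Pam3+TGFβ library. Receptor calls that were lost without these 5 libraries are given with both values.

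Changes are log2 fold changes with their standard error (SE) from edgeR's quasi-likelihood test, fitted to all 12 libraries, with Benjamini-Hochberg adjusted p-values over all 14749 tested genes; a gene was called at an adjusted p under 0.05. TGFβ alone lowered 7 of the 8 receptor genes (Clec12a, Clec10a, Clec4e, Clec4n, Clec4d, Clec4a2 and Clec7a), against 51% of all tested genes called in either direction and 28.1% called lower. The median change over the 8 was -1.498 on the log2 scale, and that of all tested genes -0.008. In cells already given Pam3, 5 receptors were lower with TGFβ and Clec5a was higher, beside 45.3% of all tested genes called in either direction, 23.8% lower and 21.5% higher. Pam3 without TGFβ raised 6 receptors and lowered Clec10a, where 18.3% of all tested genes passed, 9.62% upward and 8.66% downward. With TGFβ present, Pam3 raised 7 and lowered Clec10a, where 38.5% of all tested genes passed, 20.4% upward and 18.1% downward. The Pam3 response itself was larger with TGFβ than without it for 5 receptors, by the interaction test that compares the responses directly; of all tested genes 15.9% were called in that test, 10.3% with a positive difference and 5.67% with a negative one.

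**Figure D1:**
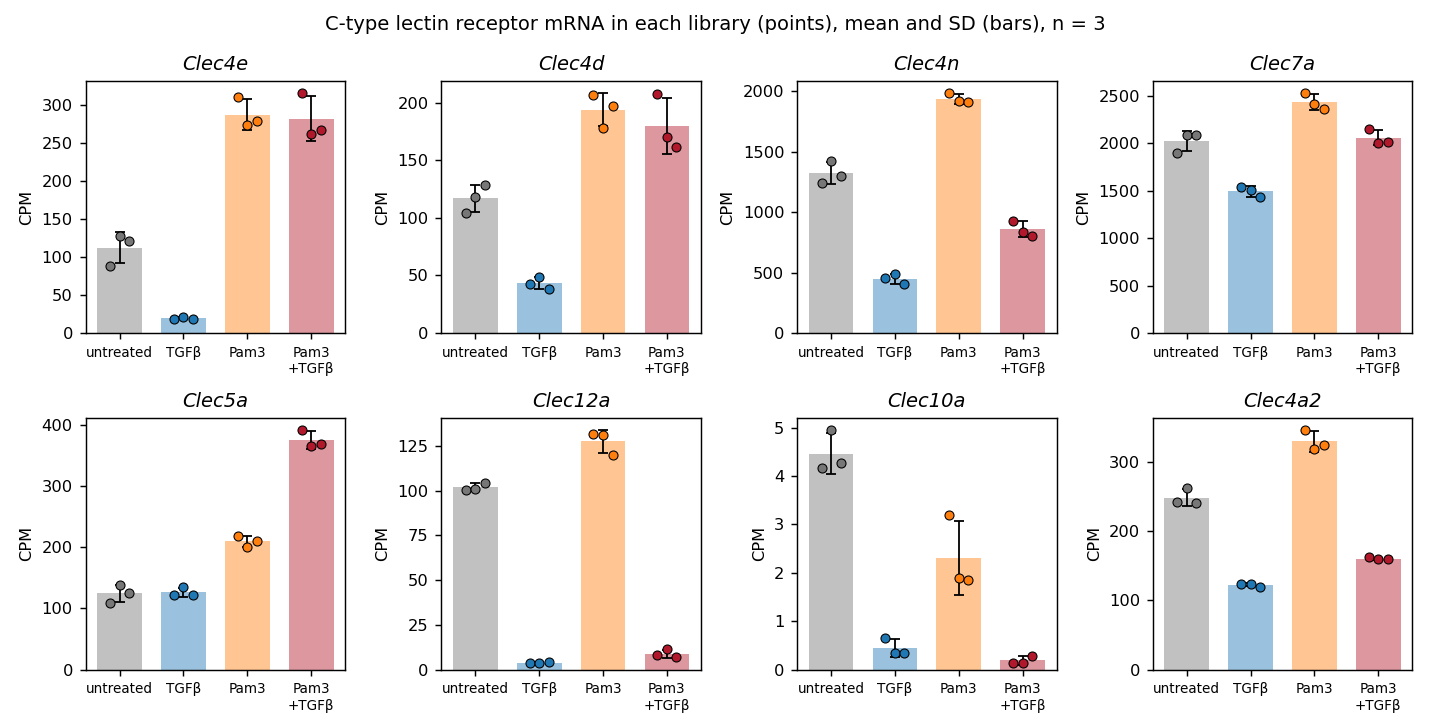
Level of each receptor gene in CPM (vertical axes, from 0) in the untreated, TGFβ, Pam3 and Pam3+TGFβ groups; points are libraries, bars the mean and whiskers the SD over 3 libraries. Clec4e and Clec4d reach about the same level in both Pam3 groups, Clec12a and Clec10a stay low in both TGFβ groups, and Clec5a is highest with both agents.

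Clec4e encodes Mincle, the FcRγ-coupled receptor for the mycobacterial cord factor trehalose dimycolate. It measured 88.8, 128 and 121 CPM in the untreated libraries, 18.5, 20.8 and 18.4 CPM with TGFβ, 311, 274 and 279 CPM with Pam3, and 316, 263 and 267.5 CPM with both. The 3 TGFβ libraries were the lowest of all 12, and the 6 libraries with Pam3 formed one range whether or not TGFβ was present. Without Pam3, TGFβ lowered Clec4e 5.85-fold (log2 change -2.55, SE 0.149, adjusted p 3.45e-07). In the Pam3-treated cells the TGFβ effect was -0.03 (SE 0.133, adjusted p 0.882), with a 95% interval of -0.33 to 0.27, and the groups overlapped. Pam3 raised the gene 2.56-fold without TGFβ (log2 change 1.35, SE 0.136, adjusted p 9.62e-05) and 14.6-fold with it (log2 change 3.87, SE 0.155, adjusted p 2.77e-08). The response with TGFβ exceeded that without it by 2.52 in log2 units (SE 0.199, adjusted p 1.92e-05). In only the 7 libraries low in RNAs without poly(A) tails, that difference was 2.22 with an adjusted p of 0.0584, and it was no longer called.

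Clec4d encodes a relative of Mincle that also signals through FcRγ, can pair with Mincle and binds the same glycolipid. Its level was 105, 118 and 128 CPM in untreated libraries, 42.3, 48.7 and 38.4 CPM with TGFβ, 206.5, 178 and 197.5 CPM with Pam3, and 208, 170.0 and 161.5 CPM with both. As for Clec4e, the TGFβ libraries were lowest and the libraries of both Pam3 groups overlapped. TGFβ alone lowered it 2.71-fold (log2 change -1.44, SE 0.122, adjusted p 2.26e-06), and with Pam3 the TGFβ effect was -0.11 (SE 0.116, adjusted p 0.482, 95% interval -0.37 to 0.15). Pam3 raised it 1.66-fold without TGFβ (log2 change 0.73, SE 0.118, adjusted p 0.0014) and 4.16-fold with TGFβ (log2 change 2.06, SE 0.123, adjusted p 1.81e-07). The 2 responses differed by 1.33 (SE 0.168, adjusted p 0.000281), and by 0.98 (adjusted p 0.0106) in only the 7 libraries low in RNAs without poly(A) tails. The number of Clec4e counts per Clec4d count was 0.959 ± 0.119 (SD, n = 3) in untreated libraries, 0.448 ± 0.0275 with TGFβ, 1.49 ± 0.064 with Pam3 and 1.57 ± 0.0711 with both. Clec4e was therefore the more changeable of the pair, lower relative to Clec4d with TGFβ alone and higher with Pam3, with no overlap between the TGFβ, untreated and Pam3 libraries.

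Clec4n encodes Dectin-2, a receptor for fungal and mycobacterial mannans that signals through FcRγ. Untreated libraries held 1241, 1421 and 1303 CPM, TGFβ libraries 452, 491 and 404 CPM, Pam3 libraries 1986, 1919 and 1909 CPM, and Pam3+TGFβ libraries 931, 840.0 and 801 CPM. None of the 4 groups overlapped, and the Pam3+TGFβ libraries lay below the untreated ones. TGFβ lowered Clec4n in both settings, 2.94-fold without Pam3 (log2 change -1.56, SE 0.0693, adjusted p 1.61e-15) and 2.26-fold with it (log2 change -1.18, SE 0.0686, adjusted p 3.84e-13). Pam3 raised it 1.47-fold without TGFβ (log2 change 0.55, SE 0.0679, adjusted p 1.35e-06) and 1.91-fold with TGFβ (log2 change 0.93, SE 0.0683, adjusted p 4.19e-11). The difference between the responses was 0.38 (SE 0.0958, adjusted p 0.00663), and 0.21 with an adjusted p of 0.475 in only the 7 libraries low in RNAs without poly(A) tails. Its gene lies next to Clec4d, yet Clec4n did not share the overlap of the Pam3 groups seen for Clec4d and Clec4e.

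Clec7a encodes Dectin-1, the β-glucan receptor, which carries its ITAM-like motif in its own tail. It measured 1897, 2086 and 2083 CPM in untreated libraries, 1542, 1501 and 1433 CPM with TGFβ, 2526, 2414 and 2355 CPM with Pam3, and 2152, 2005 and 2015 CPM with both. The Pam3+TGFβ libraries overlapped the untreated ones, while the TGFβ libraries were below and the Pam3 libraries above. The effect of TGFβ was -0.44 without Pam3 (SE 0.0558, adjusted p 2.98e-07) and -0.24 with Pam3 (SE 0.0557, adjusted p 0.000861). Pam3 raised the gene 1.20-fold without TGFβ (log2 change 0.27, SE 0.0557, adjusted p 0.00103) and 1.38-fold with it (log2 change 0.46, SE 0.0558, adjusted p 1.97e-07). These were called changes, and the TGFβ effects on Clec7a were the smallest among the receptors that fell. The difference between its Pam3 responses was 0.20 (95% interval 0.03 to 0.36) and was not called (SE 0.0788, adjusted p 0.0973); DESeq2 gave it an adjusted p of 0.0239, and in only the 7 libraries low in RNAs without poly(A) tails it was 0.0948 (adjusted p 0.754).

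Clec5a encodes a receptor that signals through DAP12 and is known from dengue virus infection and neutrophil activation. It measured 109, 138 and 126 CPM in untreated libraries, 122, 135 and 122 CPM with TGFβ, 218, 201 and 210.0 CPM with Pam3, and 392, 365 and 368 CPM with both. Untreated and TGFβ libraries overlapped, and the Pam3+TGFβ libraries were the highest, above every Pam3 library. The TGFβ effect was 0.02 without Pam3 (SE 0.0659, adjusted p 0.794, 95% interval -0.11 to 0.16), and in Pam3-treated cells TGFβ raised Clec5a 1.79-fold (log2 change 0.84, SE 0.0653, adjusted p 1.69e-09). Pam3 raised it 1.68-fold without TGFβ (log2 change 0.75, SE 0.0659, adjusted p 6.35e-08) and 2.96-fold with it (log2 change 1.57, SE 0.0666, adjusted p 1.61e-13). The responses differed by 0.815 (SE 0.0926, adjusted p 2.12e-06), and by 0.64 (adjusted p 0.0175) in only the 7 libraries low in RNAs without poly(A) tails. Clec5a was the 1 receptor of the 8 that TGFβ raised in Pam3-treated cells.

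Clec12a encodes an ITIM receptor that binds uric acid crystals and dampens myeloid activation. Its level was 101, 101 and 104.5 CPM in untreated libraries, 3.57, 3.95 and 4.58 CPM with TGFβ, 131.5, 131 and 120.1 CPM with Pam3, and 8.23, 11.3 and 6.87 CPM with both. Every library with TGFβ was under 12 CPM and every library without it above 100 CPM. TGFβ lowered it 25.3-fold without Pam3 (log2 change -4.66, SE 0.15, adjusted p 1.28e-11) and 14.5-fold with Pam3 (log2 change -3.86, SE 0.138, adjusted p 4.95e-11). The Pam3 response without TGFβ was 0.32 (SE 0.117, adjusted p 0.0819) and was not called, although the groups did not overlap; it was called under 4 of 23 alternatives, with adjusted p-values over all of them from 6.49e-05 to 0.349. With TGFβ, Pam3 raised Clec12a 2.17-fold (log2 change 1.12, SE 0.158, adjusted p 8.18e-05), to a level far under that of untreated cells. The responses differed by 0.80 (SE 0.197, adjusted p 0.0145), a call lost without TGFβ replicate 2 (0.76, adjusted p 0.0502) and in only the 7 libraries low in RNAs without poly(A) tails (0.75, adjusted p 0.352).

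Clec4a2 encodes DCIR, the other ITIM receptor of the 8. Untreated libraries held 241, 262 and 241 CPM, TGFβ libraries 123.5, 124 and 119.9 CPM, Pam3 libraries 346, 318 and 324 CPM, and Pam3+TGFβ libraries 162, 159 and 159 CPM. The groups did not overlap, and both agents moved the gene by nearly the same factor whether the other was present or not. TGFβ lowered it 2.03-fold without Pam3 (log2 change -1.02, SE 0.0449, adjusted p 5.28e-16) and 2.06-fold with it (log2 change -1.04, SE 0.0447, adjusted p 3.94e-16). Pam3 raised it by 0.41 without TGFβ (SE 0.0441, adjusted p 1.38e-07) and by 0.39 with it (SE 0.0447, adjusted p 1.05e-07). The difference between the Pam3 responses was -0.02 (SE 0.0627, adjusted p 0.872), with a 95% interval of -0.15 to 0.11.

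Clec10a encodes a receptor for terminal galactose and N-acetylgalactosamine, a marker of alternatively activated macrophages. It was the scarcest of the 8 per kilobase of exon. The raw counts were 158, 206 and 150 in untreated libraries, 24, 14 and 13 with TGFβ, 123, 71 and 58 with Pam3, and 5, 5 and 13 with both. In CPM, untreated libraries held 4.16, 4.96 and 4.28, TGFβ libraries 0.664, 0.346 and 0.341, Pam3 libraries 3.20, 1.89 and 1.84, and Pam3+TGFβ libraries 0.145, 0.134 and 0.294. Clec10a was the 1 receptor lower with Pam3, and none of the groups compared overlapped. The TGFβ effect was -3.31 without Pam3 (SE 0.325, adjusted p 3.52e-09) and -3.54 with it (SE 0.369, adjusted p 1.18e-08). Pam3 lowered it 1.93-fold without TGFβ (log2 change -0.95, SE 0.278, adjusted p 0.0173) and 2.26-fold with it (log2 change -1.17, SE 0.423, adjusted p 0.0298). Each of these Pam3 calls was lost under 5 alternatives, and the adjusted p over all alternatives ran from 0.00406 to 0.496 without TGFβ and from 0.0108 to 0.364 with it, the highest of each in only the 7 libraries low in RNAs without poly(A) tails, where the log2 changes were -0.50 and -0.81. Leaving out untreated replicate 2, Pam3 replicate 2 or Pam3 replicate 3 each ended the call without TGFβ, with log2 changes of -0.86, -0.82 and -0.81. Without TGFβ replicate 1 or Pam3+TGFβ replicate 1 or 2, the change with TGFβ was -0.82, -1.04 or -0.99 and was not called.

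**Figure D2:**
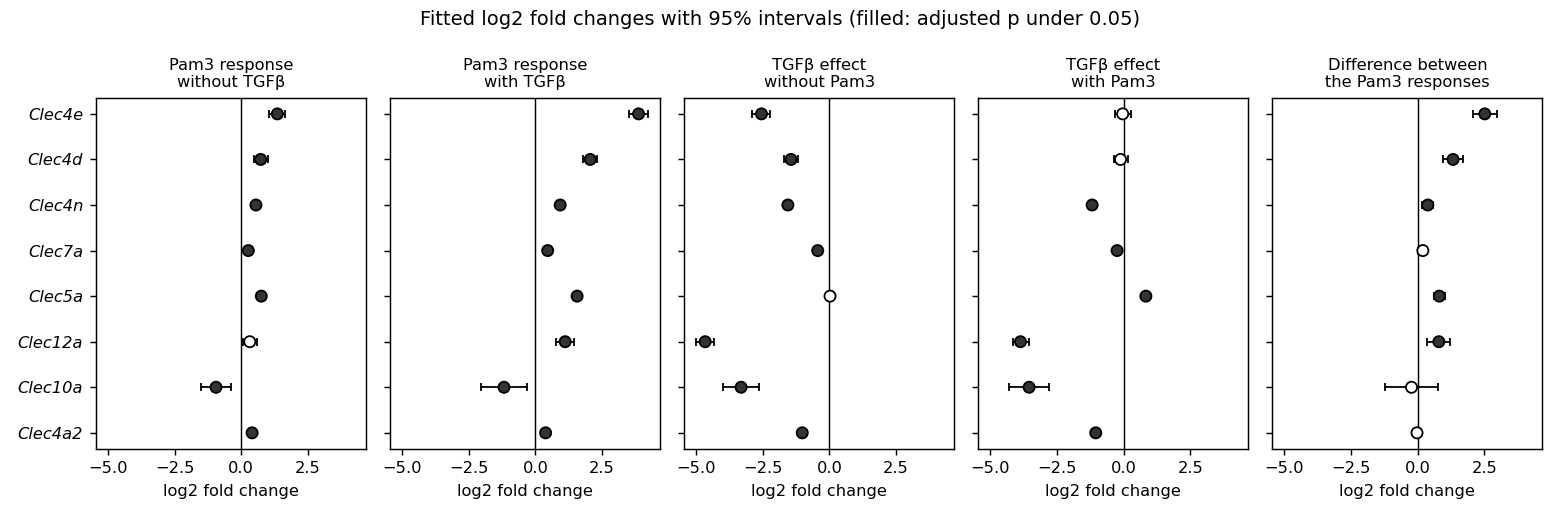
Fitted log2 fold changes (horizontal axes) of the 8 receptor genes in the 5 contrasts, with 95% intervals; filled points have an adjusted p under 0.05. The TGFβ effect on Clec4e goes from -2.55 without Pam3 to -0.03 with it, whereas Clec12a, Clec10a, Clec4n and Clec4a2 stay left of 0 in both TGFβ panels.

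Genes were ranked by their level per kilobase of annotated exon (CPM per kb, exon union of the GENCODE M39 annotation). In untreated cells the order was Clec4n at 930.9 ± 64.4 CPM per kb (SD, n = 3), Clec7a at 766 ± 41.1, Clec4a2 at 84.7 ± 4.16, Clec4d at 72.9 ± 7.40, Clec5a at 27.9 ± 3.27, Clec4e at 22.7 ± 4.23, Clec12a at 17.3 ± 0.361 and Clec10a at 1.54 ± 0.149. The ranges of Clec5a and Clec4e overlapped across libraries, but Clec5a was above Clec4e within each one, at 24.6 against 17.9, 31.1 against 25.8 and 28.2 against 24.4 CPM per kb. Clec4n led with Pam3 too, at 1365 CPM per kb against 921.7 for Clec7a. With TGFβ the order of the leading pair was the other way round, Clec7a at 566 and Clec4n at 316 CPM per kb without Pam3, and 779.8 and 604 CPM per kb with it. Clec4n counts per Clec7a count were 0.654 ± 0.028 (SD, n = 3) in untreated libraries, 0.301 ± 0.0234 with TGFβ, 0.797 ± 0.0123 with Pam3 and 0.416 ± 0.0176 with both. Before division by exon length, Clec7a was thus above Clec4n in every group. The lead of Clec4n per kilobase rests on the annotated lengths, 1420 bases for Clec4n and 2638 for Clec7a. Clec5a ranked below Clec4a2 in untreated and TGFβ cells and above it with both agents, at 84.2 against 54.6 CPM per kb. The summed level of all 8 genes was 4053 ± 242 CPM (SD, n = 3) in untreated cells, 2257 ± 101 in TGFβ cells, 5520 ± 181 in Pam3 cells and 3920 ± 216 under both agents. Clec7a and Clec4n made up 74.4% to 86.0% of this sum, which was not corrected for exon length.

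Of the 8 genes, 7 lie on chromosome 6 and Clec10a lies on chromosome 11, by the annotation of GRCm39, the build named in the submitters' processing notes. A block of 9 lectin genes at chr6:122896122-123266829 (370.7 kb) holds Clec4a2, Clec4n, Clec4d and Clec4e. Clec4d (chr6:123239070-123252230, plus strand) and Clec4e (chr6:123258748-123266829, minus strand) are 6.5 kb apart on opposite strands at its end. A second block of 13 genes at chr6:128639343-129484128 holds Clec12a (chr6:129319654-129342266) and Clec7a (chr6:129438554-129449742), and Clec5a stands alone at chr6:40551234-40562773. In the first block 8 genes were tested, and all 8 were called lower with TGFβ alone, beside 28.1% of all tested genes. With Pam3 present, Clec4d and Clec4e were the exceptions, and the other 6 were called lower, beside 23.8% of all tested genes. The non-member Clec4a1, a relative of Clec4a2, measured 9.89, 9.34 and 9.52 CPM in untreated libraries, 0.443, 0.469 and 0.498 CPM with TGFβ, 42.3, 43.3 and 38.3 CPM with Pam3, and 4.07, 3.27 and 3.48 CPM with both. Its TGFβ effect was -4.34 (SE 0.146, adjusted p 2.1e-18) without Pam3 and -3.52 (SE 0.101, adjusted p 1.14e-19) with it. Clec4a3, the next gene, had a TGFβ effect of -3.08 without Pam3 (SE 0.102, adjusted p 4.3e-17) and -3.49 in its presence (SE 0.103, adjusted p 6.16e-18). For Clec4b1 the effect was -1.18 without Pam3 (SE 0.104, adjusted p 4.43e-10) and -1.66 in its presence (SE 0.105, adjusted p 1.01e-12). Clec4a2, Clec4a1, Clec4a3, Clec4a4 and Clec4b1 are close paralogs, and reads that fit more than 1 of them could have been split in counting.

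**Figure D3:**
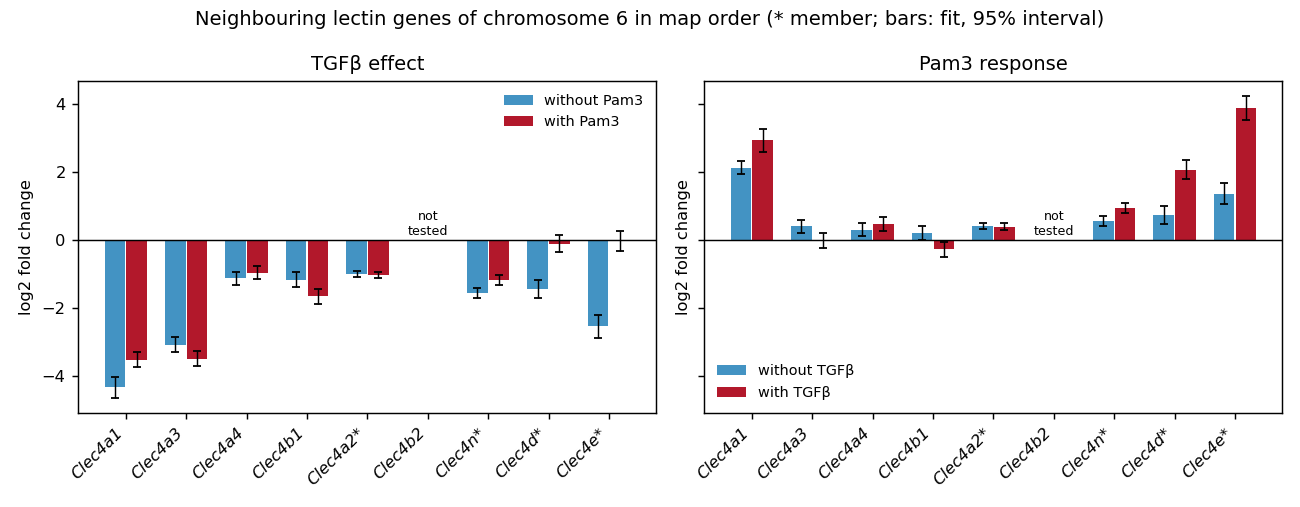
Fitted log2 fold changes (vertical axes) of the 9 neighbouring lectin genes of the first chromosome 6 block in map order, for the TGFβ effect (left) and the Pam3 response (right); whiskers are 95% intervals, asterisks mark the receptors described here, and Clec4b2 was not tested. With Pam3, the TGFβ effect is near 0 for Clec4d and Clec4e at the right end and below 0 for the other 6 tested genes.

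Mgl2, the close paralog beside Clec10a on chromosome 11, held 311, 303 and 201 counts in untreated libraries, 0, 3 and 4 with TGFβ, 246, 215 and 163 with Pam3, and 0, 3 and 0 with both. It passed the count filter only through the groups without TGFβ, so its difference with TGFβ is given as these counts and not as a test. Its Pam3 response without TGFβ was -0.29 (SE 0.224, adjusted p 0.428) and was not called. Reads shared by this pair would also make the split between them uncertain.

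The signalling genes used by these receptors were followed in 3 lists. Among 7 adaptors and proximal kinases, 5 were called lower with TGFβ alone (list median -0.259 on the log2 scale, against -0.008 for all tested genes, of which 28.1% were called lower), and 3 were called higher and 3 lower with TGFβ in Pam3-treated cells, where 45.3% of all tested genes were called. Fcer1g, the FcRγ adaptor of Mincle and Dectin-2, held 592, 670.1 and 597 CPM in untreated libraries, 439, 406 and 406 CPM with TGFβ, 661, 661 and 668 CPM with Pam3, and 545, 561 and 513 CPM with both. Its groups overlapped only between untreated and Pam3 cells, and TGFβ lowered it 1.49-fold without Pam3 (log2 change -0.57, SE 0.0545, adjusted p 1.98e-09) and 1.23-fold with it (log2 change -0.30, SE 0.0543, adjusted p 6.05e-05). Tyrobp, the DAP12 adaptor of Clec5a, averaged 671 ± 57.6 CPM (SD, n = 3) untreated, 561 ± 6.89 in the TGFβ group, 658 ± 11.3 in the Pam3 group and 512 ± 23.4 in the Pam3+TGFβ group. TGFβ lowered Tyrobp in both settings (log2 changes -0.26 and -0.36, SE 0.0555 and 0.0556, adjusted p 0.00035 and 6.12e-06), and its Pam3 responses were not called (adjusted p 0.804 and 0.0668), though the one with TGFβ, a decrease, was called under 7 of 22 alternatives. The adaptor of Clec5a was thus lower in the Pam3+TGFβ group, where Clec5a itself was highest.

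Pam3 raised 4 of the 7 adaptors and kinases without TGFβ, and with TGFβ it raised 5 (of all tested genes, 9.62% and 20.4%) and lowered Hcst, which encodes DAP10, at 2.12 to 3.33 CPM in the group means. The Hcst call was lost without TGFβ replicate 1 (log2 change -0.39 in place of -0.65, adjusted p 0.234). Without Pam3+TGFβ replicate 1 (-0.64, adjusted p 0.0641) or 2 (-0.62, adjusted p 0.0693) the call was lost while the change stayed about as large. The call was also lost in only the 7 libraries low in RNAs without poly(A) tails, where the change was -0.39. Syk, the kinase that ITAM receptors recruit, measured 739, 799.5 and 798.5 CPM in untreated libraries, 537, 571 and 564 CPM with TGFβ, 1149, 1104 and 1113 CPM with Pam3, and 1321, 1192 and 1292 CPM with both. It was lowest with TGFβ alone and highest with both agents, with no overlap between groups. Its Pam3 response was 0.53 without TGFβ (SE 0.0537, adjusted p 5.39e-08) and 1.19 with it (SE 0.0543, adjusted p 2.02e-15), a difference of 0.66 (SE 0.0758, adjusted p 3.65e-07). Src, a kinase of the Src family, had the same order of responses. It rose 1.85-fold without TGFβ (SE 0.128 in log2 units, adjusted p 1.17e-05) and 4.05-fold with it (SE 0.12, adjusted p 3.79e-13). Over the whole list, 4 of 7 had a larger Pam3 response with TGFβ by the interaction test, beside 10.3% of all tested genes with a positive difference; the Fcer1g call among them was lost in 5 alternatives, and those of Fcer1g and Fgr in only the 7 libraries low in RNAs without poly(A) tails. In those 7 libraries fewer of the 7 genes were called for that difference, the Pam3 response without TGFβ and the TGFβ effect with Pam3. Fewer of all tested genes were called there too. In all 12 libraries the list's median difference was 0.274 against 0.005 for all tested genes.

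Of 10 downstream genes, TGFβ alone lowered 6 and raised 1 (list median -0.261). In Pam3-treated cells TGFβ lowered 4 and raised 3 (list median -0.015). Pam3 with TGFβ raised 5 and lowered 2 (list median 0.244, against -0.019 for all tested genes). Without TGFβ, Pam3 raised 4 and lowered 1 (list median 0.082), and 3 were called without untreated replicate 3 or Pam3 replicate 1 or 2. Of all tested genes 51% were called for TGFβ alone and 45.3% for TGFβ with Pam3. For Pam3 the shares were 38.5% with TGFβ and 18.3% without it. Malt1, the paracaspase that cleaves its targets after Card9 and Bcl10 assemble, held 140, 135 and 149 CPM in untreated libraries, 48.4, 53.4 and 52.4 CPM with TGFβ, 184, 177 and 171 CPM with Pam3, and 146, 140.5 and 141 CPM with both. Its TGFβ libraries were the lowest, and the untreated and Pam3+TGFβ libraries overlapped. The Pam3 response of Malt1 was 0.33 (SE 0.0505, adjusted p 2.73e-05) without TGFβ and 1.47 (SE 0.0524, adjusted p 1.5e-17) with it. Card9, its scaffold partner, was lowered by Pam3 in both settings (log2 changes -0.35 and -0.42, SE 0.0501 and 0.0503, adjusted p 9.03e-06 and 1.62e-07) and by TGFβ in both (log2 changes -0.22 and -0.29, SE 0.0499 and 0.0504, adjusted p 0.000533 and 2.73e-05). Vav3, an exchange factor downstream of Syk, was lowered by TGFβ in both settings (log2 changes -1.14 and -1.21, SE 0.105 and 0.104, adjusted p 1.03e-09 and 3.75e-10). Prkcd, the protein kinase that activates Card9, had a Pam3 response of 0.45 without TGFβ (SE 0.0543, adjusted p 9.13e-07) and 1.02 in its presence (SE 0.0547, adjusted p 4.55e-14).

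Among 5 phosphatases and ubiquitin ligases that restrain these receptors, Pam3 raised 2 without TGFβ and 3 with it, and TGFβ lowered 3 and raised Cblb in each setting (list medians -0.13 and -0.125). The shares called over all tested genes were 18.3% and 38.5% for Pam3 and 51% and 45.3% for TGFβ. With upper-quartile scaling 2 of these 5 were called for TGFβ alone in place of 4, as when only the groups compared were fitted or TGFβ replicate 1 or 3 was left out. Cblb, a ligase that directs activated lectin receptors and Syk to degradation, averaged 21.6 ± 1.92 CPM (SD, n = 3) untreated, 28.0 ± 0.553 in the TGFβ group, 23.3 ± 1.11 in the Pam3 group and 43.6 ± 3.61 in the Pam3+TGFβ group. TGFβ raised it by 0.37 without Pam3 (SE 0.0801, adjusted p 0.000351) and by 0.90 with it (SE 0.0795, adjusted p 5.64e-10). Ptpn6, the SHP-1 phosphatase of ITIM receptors, was lowered slightly by TGFβ, 1.09-fold without Pam3 (log2 change -0.13, SE 0.0514, adjusted p 0.0378) and 1.13-fold with it (log2 change -0.18, SE 0.0514, adjusted p 0.0061). The first of these Ptpn6 calls was lost under 15 of 23 alternatives, 8 of them with 1 library left out; without untreated replicate 2 the change was -0.059 (adjusted p 0.287).

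**Figure D4:**
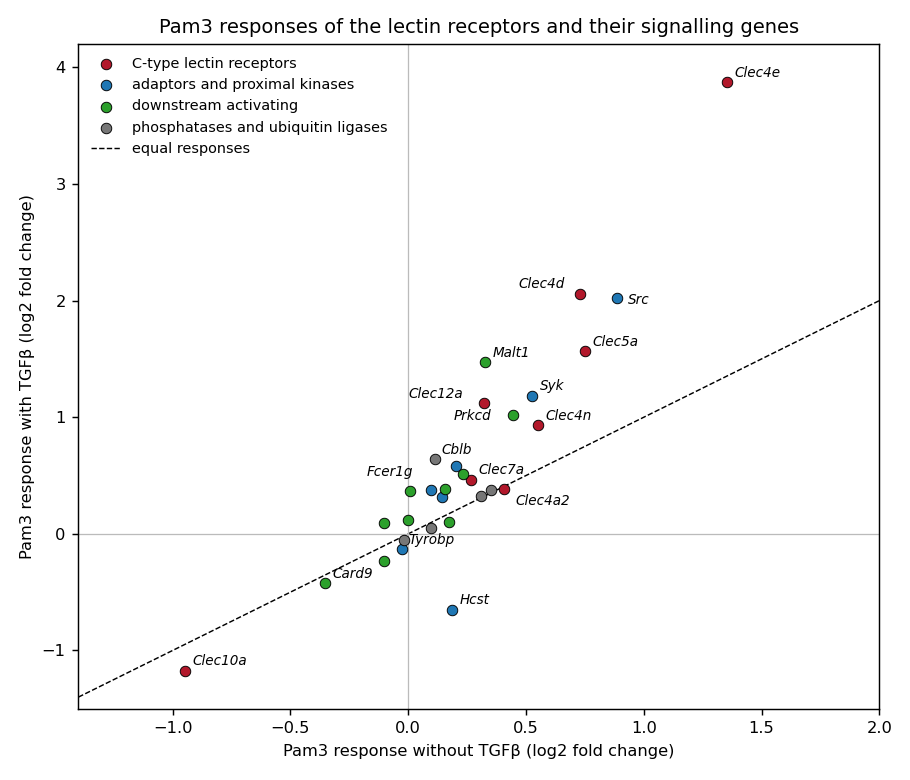
Pam3 response of each receptor and signalling gene without TGFβ (horizontal axis) and with TGFβ (vertical axis), as fitted log2 fold changes; colours give the gene lists and the dashed line marks equal responses. Clec4e, Clec4d, Clec5a, Src, Malt1 and Syk lie above the line, and Clec4a2 lies on it.

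Beyond these 8, 20 of 36 other C-type lectin genes in the table were tested. Mgl2 and Clec4f passed the count filter only through the groups without and with TGFβ, respectively, and are left out of the counts that follow. Of the other 18, TGFβ alone lowered 9 and raised 4 (list median -0.365), and with Pam3 it lowered 9 and raised 5 (list median -0.348). Pam3 raised 9 and lowered 3 without TGFβ, and raised 8 and lowered 5 with it. Of all tested genes 51% and 45.3% were called in these TGFβ contrasts, and 18.3% and 38.5% in these Pam3 contrasts. Cd93, a group XIV lectin of myeloid and endothelial cells, fell from 522, 467 and 530.0 CPM in untreated libraries to 34.5, 36.1 and 34.4 CPM with TGFβ (log2 change -3.85, SE 0.0604, adjusted p 3.86e-24). Cd69, an early activation antigen, rose with Pam3 by 2.48 without TGFβ (SE 0.233, adjusted p 4.06e-08) and by 7.20 with TGFβ (SE 0.322, adjusted p 1.42e-14), from 2, 1 and 8 counts in the TGFβ libraries to 576, 529 and 574 with both. Olr1, the receptor for oxidised low-density lipoprotein that lies beside Clec7a, held 220.2, 236 and 236 CPM in untreated libraries, 387, 414 and 402 CPM with TGFβ, 396, 373 and 384 CPM with Pam3, and 761, 727.5 and 734 CPM with both. The TGFβ effect on Olr1 was opposite in direction to that on Clec7a, and its Pam3 response was 0.74 without TGFβ (SE 0.0477, adjusted p 1.86e-11) and 0.89 in its presence (SE 0.0477, adjusted p 4.95e-14).

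The genes whose pattern over the 12 libraries was most like that of each receptor were found by Pearson correlation of log2 CPM among 11059 genes with a mean of at least 1 CPM. These correlations rest on the 4 group levels and are given as a description. Nearest to Clec4e were Ikbke (r = 0.998), a kinase of the NF-kB and interferon pathways, Traf1 (r = 0.997), a signalling adaptor of TNF receptors, and Ms4a6c (r = 0.996). Traf1 was also nearest to Clec4d (r = 0.995), ahead of App and Tnfrsf1b, and Clec4d and Clec4e themselves correlated at 0.994. Clec5a was closest to Ifit3b (r = 0.996), an interferon-induced gene that averaged 0.699 CPM untreated, 0.854 in the TGFβ group, 6.07 in the Pam3 group and 71.3 in the Pam3+TGFβ group, and next to it were Il1b and Slc3a2. Clec12a was closest to Cdk18, Cd52 and Pla2g7, and Pla2g7, a secreted phospholipase, averaged 69.3, 1.03, 87.4 and 2.52 CPM in the same order of groups. Clec4n was closest to Cd53 (r = 0.998), Bst1 and Rnf128, Clec7a to Tmem38b (r = 0.991), Lims1 and Cyfip1, Clec4a2 to Lrrc25 (r = 0.992), Rap2a and Dok2, and Clec10a to Ephx1 (r = 0.988), Tspan5 and Oxct1.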

How the data were processed

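Raw counts per gene symbol and a scaled signal were deposited. Per the labels' protocols and the submitters' processing notes, the library kit selected mRNA and kept strand, and the authors aligned reads to GRCm39 with Bowtie2 2.4.1, checked them with FastQC 0.11.7, counted them with featureCounts of Subread 2.0.0 and used DESeq2 1.36.0 in R 4.2.1. The deposited counts are whole reads per gene. The deposited normalized signal equals those counts divided by 1 constant per library, and it was used for an alternative only. Which annotation was counted against, with which strand setting, and how multiply aligned reads were handled are not given in the sources used here. Bowtie2 makes no spliced alignments, so junction reads can be lost. Opposite-strand genes share 44 of the 4452 exon bases of Clec5a and 16 of the 2928 of Clec4a2. Without a known strand setting, reads in those shared bases cannot be assigned to either gene.

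Genes were kept with filterByExpr of edgeR 4.0.16 (minimum count 10) in R 4.3.3, scaled with TMM, and tested with the robust quasi-likelihood test on 4 group means over 12 libraries, with 5 contrasts and Benjamini-Hochberg adjustment over all tested genes. SE is the log2 change divided by the square root of F. Alternatives used DESeq2 1.42.0, limma 3.58.1 (log2 of the signal plus 1), other scalings and filters, a replicate block, only the groups compared, and each library left out; 3 settings on RNAs without poly(A) tails were added after the data were seen. Reads carry no molecular identifiers. Replicates differed beyond sampling noise in each group, so each library counts once. The test was tried on simulated counts. They held no split of the libraries by RNAs without poly(A) tails, so the trial does not cover that split. The 8 receptors and the gene lists were chosen with earlier results of these data known; 1 listed gene is not reported here and is left out of the list counts. All 8 are named; of each list, up to 4 called genes per contrast with the largest change and a mean of at least 1 CPM could be named, with Fcer1g, Tyrobp, Syk, Card9, Ptpn6, Mgl2, Clec4a1, Clec4a3 and Clec4b1, and for each receptor the 3 genes most like it. Gene positions and exon lengths come from GENCODE M39 on GRCm39, matched by symbol for 32245 of 40847 rows.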

Additional observations from a re-analysis of the deposited data

Results flagged for a closer look

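These results stand out because the Pam3 response differed with and without TGFβ, by the interaction test of edgeR over all tested genes; the values are the response with TGFβ minus the response without it, on the log2 scale. Among the receptors, the difference was 2.52 for Clec4e, 1.33 for Clec4d, 0.38 for Clec4n, 0.815 for Clec5a and 0.80 for Clec12a. The adaptor Fcer1g differed by 0.27 (adjusted p 0.0138), a call lost in 5 alternatives, 4 of them with 1 library left out, and the kinases by 1.13 for Src, 0.66 for Syk and 0.38 for Fgr. Of all tested genes 15.9% were called in this test, 10.3% with a positive and 5.67% with a negative difference. Of the 5 downstream genes called among 10 tested (2 or 3 under 6 alternatives), the 4 with the largest difference are given: Malt1 differed by 1.14, Prkcd by 0.58, Traf6 by 0.36 and Vav1 by 0.23. The Vav1 call was lost under 6 alternatives, 3 of them with 1 library left out. Of the restraining genes Cblb differed by 0.53. Of 18 other lectin genes, with Mgl2 and Clec4f left out as above, 7 were called, 4 with a positive and 3 with a negative difference. Among them, the values were 4.73 for Cd69, 0.96 for Clec2d and 0.82 for Clec4a1. The size of the Cd69 value (SE 0.471) rests on 2, 1 and 8 counts in the TGFβ libraries. In the other direction, the difference was -0.54 for Clec9a and -0.48 for Clec4b1, whose call was lost under 5 alternatives, 4 of them with 1 library left out (to -0.38, adjusted p 0.103, without Pam3 replicate 2). In only the 7 libraries low in RNAs without poly(A) tails, these calls were lost, with differences there of 2.22 for Clec4e, 0.21 for Clec4n, 0.75 for Clec12a, 0.32 for Fcer1g, 0.37 for Fgr, 0.18 for Traf6, 0.22 for Vav1, 0.40 for Cblb, 0.78 for Clec4a1, -0.44 for Clec9a and -0.56 for Clec4b1.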

How the results depend on the processing

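Over 40 receptor values (8 genes in 5 contrasts), 883 alternative values were computed; 864 kept their side of the threshold, 14 lost the call, 5 gained it, and no called value changed its sign. In 10 of the 883 an uncalled value did: the TGFβ effect on Clec4e with Pam3 (up to 0.0363) and on Clec5a without it (down to -0.0392), and the difference between Pam3 responses of Clec10a (up to 0.128) and Clec4a2 (up to 0.0199). The number of receptors called was 6 to 8 with 1 library left out for the Pam3 response without TGFβ, 7 to 8 for that with TGFβ, 7 in every case for the TGFβ effect without Pam3, 6 in every case for that with Pam3, and 4 to 5 for the difference between the Pam3 responses. In only the libraries low in RNAs without poly(A) tails, 2 receptors were called for that difference in place of 5, and 802 of all tested genes in place of 2352; 1 TGFβ and 1 Pam3 library remain there and are assumed to vary like the other groups, and the cause was not tested. With the share of those RNAs as a covariate 5 were called. A replicate block left the receptor counts at 7, 8, 7, 6 and 5. Whether libraries with the same number share a culture or animal is not known. In their deviations from the group mean, 7 of 18 same-numbered pairs correlated above 0.1 (r from -0.174 to 0.3). By group, 16 of 36 libraries correlated best with their own number. The split in RNAs without poly(A) tails also enters these correlations, so they cannot decide whether the libraries are paired. Upper-quartile scaling moved the split of all genes called in the Pam3 response with TGFβ from 3008 higher and 2670 lower to 2477 and 3489, and that of the difference between responses from 1516 and 836 to 1255 and 1097. Clec10a gives no value where every library must hold at least 10 counts, and fits of only the groups compared give no difference between responses. In the fits of only 7 or only 5 libraries (the latter with 1 untreated library, likewise assumed to vary like the other groups), calls were also lost for Ptpn6 (TGFβ effect with Pam3, -0.19 in place of -0.18, adjusted p 0.0846), Malt1 (Pam3 response without TGFβ, 0.22 in place of 0.33, 0.0612), and, for the TGFβ effect without Pam3, Tyrobp (-0.12 in place of -0.26, 0.119), Card9 (-0.13 in place of -0.22, 0.182) and Cblb (0.26 in place of 0.37, 0.0758). Counting depth limits Clec10a, at 5 to 24 counts in the libraries with TGFβ.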

Other observations

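The ratio of the activating receptor gene Clec5a to the inhibitory Clec12a shifted between the groups. The pair was chosen after the values were seen, and does not stand for the other activating and inhibitory receptors. Clec5a counts per Clec12a count were 1.09, 1.37 and 1.20 in untreated libraries, 1.66, 1.53 and 1.75 with Pam3, 34.2, 34.2 and 26.7 with TGFβ, and 47.6, 32.2 and 53.6 with both. The groups with and without TGFβ did not overlap, and Clec12a made most of the shift between untreated and TGFβ libraries, since Clec5a overlapped there. The other ITIM gene, Clec4a2, changed by -1.02 (log2) with TGFβ alone. That was a smaller fall than for the activating Clec4e (-2.55), Clec4n (-1.56) and Clec4d (-1.44), and a larger fall than for Clec7a (-0.44).

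Clec4f, the lectin known as a marker of mouse Kupffer cells, had 0 counts in all 6 libraries without TGFβ, which allows up to 3 counts in each, and 27, 53 and 46 counts with TGFβ and 23, 19 and 14 counts with both. Clec4f was chosen after its values were seen.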
